A study of Mus musculus with 29 samples.

Results

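The 7 genes Fezf2, Bcl11b, Lmo4, Ldb2, Etv1, Crym and Pcp4 were followed in the E17.5 mouse pallium after loss of the BAF chromatin remodeling subunits BAF155 and BAF170. They were chosen by name as genes of the layer 5 neurons that project below the cortex, and all 7 were listed among the 38355 genes of the untreated RNA-seq table and among the 48709 genes of the table of treated embryos. The dcKO embryos carried floxed alleles of Smarcc1 (BAF155) and Smarcc2 (BAF170) deleted by hGFAP-Cre, a transgene that acts in pallial progenitors, early in the medial pallium and later in the dorsal and lateral pallium. Untreated dcKO pallium (3 libraries) was compared with control pallium (4 libraries), whose embryos, per the study's methods, carried 1 floxed allele of each gene together with the same Cre. In the second experiment, cortex of WT embryos given vehicle (4 libraries), of dcKO embryos given vehicle (4) and of dcKO embryos given the Wnt inhibitor ICG-001 (4) was compared, the inhibitor having been injected daily into the pregnant mother. H3K27me3 was mapped by ChIP-seq in 4 control and 4 dcKO pallia. The genotype label of the untreated and the ChIP-seq samples reads dcKO for the controls as well, so that these groups rest on the letter in each sample's title. The labels do not say whether replicates came from separate embryos, and p-values measure the spread between these libraries, which may be technical.

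Subcerebral projection neurons are the large pyramidal cells of layer 5 that send axons to the brainstem and spinal cord. FEZF2, a zinc finger repressor, specifies them, and BCL11B, also called CTIP2, is a zinc finger factor needed for the growth of their corticospinal axons. LMO4 is a LIM-only adaptor protein and LDB2 a LIM domain-binding cofactor, so that both act by joining other transcription factors, and ETV1 is an ETS factor of layer 5 neurons. CRYM binds thyroid hormone and PCP4 binds calmodulin. Not all of these genes are confined to layer 5 cells: Bcl11b is also strongly expressed in the medium spiny neurons of the striatum, and Lmo4 in upper layers. In bulk tissue, fewer cells of a type and less RNA per cell cannot be told apart.

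The targeted genes were read first, since they check the labels. Smarcc1 stood at 247 to 269 CPM (counts relative to the library total, scaled by TMM) in the 4 untreated controls and at 128 and 135 CPM in dcKO replicates 3 and 4, but at 245 CPM in the library labelled dcKO replicate 2. It likewise stood at 245 to 299 CPM in WT vehicle, at 133 to 138 CPM in dcKO vehicle replicates 1, 3 and 4, and at 242 CPM in the library labelled dcKO vehicle replicate 2. Smarcc2 showed the same, at 669.9 and 692 CPM in these libraries. Both libraries therefore go against their labels, and the calls of each comparison are given with and without them. Group means per kilobase and correlations across libraries include them. Among the Wnt inhibitor libraries, Smarcc1 was 214, 252, 140 and 173 CPM in replicates 1 to 4, so that the library labelled replicate 2 also lay within the WT range. Smarcc2 was 644, 695, 416 and 586 CPM in them. It was 664 to 834 CPM in WT vehicle and 425 to 439 CPM in dcKO vehicle replicates 1, 3 and 4. By Smarcc2, inhibitor replicate 1 thus lay just below the WT range, and replicate 3 alone was as low as these dcKO vehicle libraries. Libraries of the same number in the 2 experiments also resembled each other: over 15220 genes, the deviations from the group mean correlated at r = 0.52 to 0.80 for the 3 same-numbered dcKO pairs and at 0.20 to 0.55 for the 4 same-numbered control pairs, against -0.70 to 0.50 for the 9 dcKO pairs and -0.35 to 0.14 for the 12 control pairs of different numbers. The summed CPM of 6 choroid plexus genes was 131 in untreated control replicate 4 and 127 in WT vehicle replicate 4, and at most 17.1 in the other control and WT libraries. Whether the same tissue was sequenced in both experiments was not tested, and the vehicle experiment is not read as independent of the untreated one. Library totals were 11946658 to 28391046 counts, and the members held 117 counts (Pcp4, lowest) to 10281 counts (Bcl11b, highest) per library.

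Per kilobase of exon, the members spanned a wide range of levels in the untreated controls. Lmo4 was highest at 49.5 ± 3.96 CPM per kb (SD, n = 4), followed by Bcl11b at 42.7 ± 3.71, Fezf2 at 38.7 ± 4.79 and Ldb2 at 31.7 ± 2.81 CPM per kb. Each of these 4 overlapped its neighbor in the order, so that their ranks are not separated by the spread over libraries. Crym followed at 19.2 ± 0.839, Pcp4 at 11.6 ± 0.839 and Etv1 at 2.43 ± 0.381 CPM per kb, none of them overlapping the gene next above it. In WT vehicle cortex the order was the same, with Lmo4 at 51.8 ± 5.27 and Etv1 at 1.89 ± 0.497 CPM per kb (n = 4), although Ldb2 and Crym overlapped there and Fezf2 and Ldb2 did not. In untreated dcKO (n = 3) and dcKO vehicle (n = 4), Bcl11b stood first, at 42.3 ± 2.36 and 42.6 ± 4.64 CPM per kb (SD), and Lmo4 next, at 36.5 ± 10.4 and 36.3 ± 9.17 CPM per kb, with overlap between the genes in both groups.

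**Figure D1:**
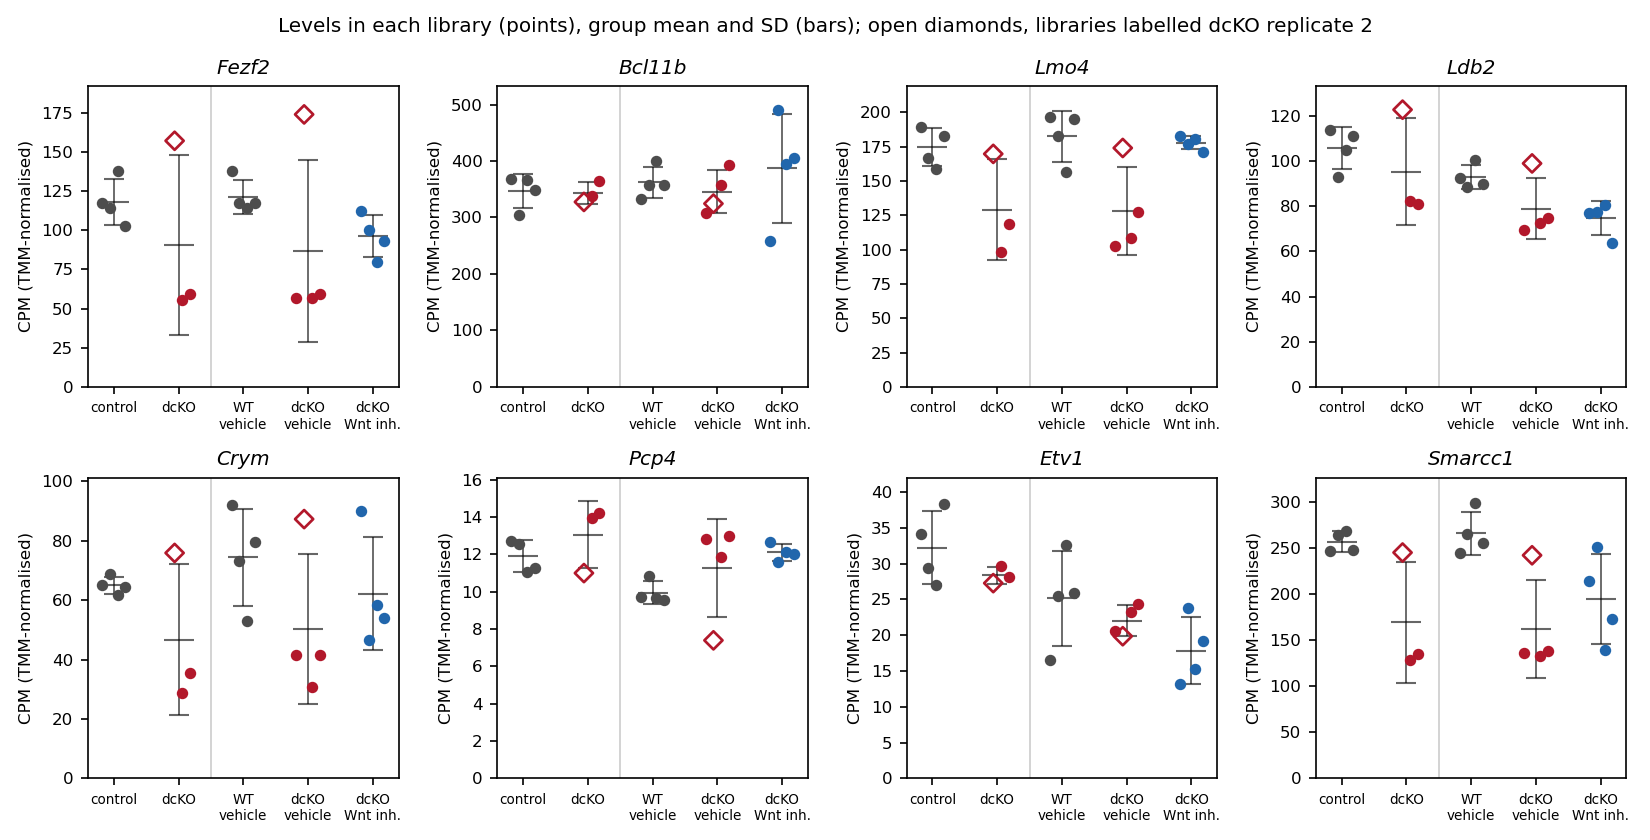
CPM (vertical axis, from 0) of the 7 genes and of Smarcc1 in each library of the 5 RNA groups, with the group mean and SD as bars. The open diamonds, the libraries labelled dcKO replicate 2, lie with the controls for Smarcc1 and at or above them for Fezf2 (157 and 174 CPM).

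In the untreated pallium, Fezf2, Crym, Lmo4 and Ldb2 were lower in dcKO replicates 3 and 4 than in every control, Bcl11b and Etv1 were level with the controls, and Pcp4 was higher. Fezf2 measured 117, 114, 138 and 103 CPM in the controls, against 157, 55.7 and 59.3 CPM in dcKO replicates 2, 3 and 4. Crym measured 65.3, 68.7, 61.8 and 64.4 CPM in the controls and 75.9, 28.8 and 35.5 CPM in the dcKO. For both genes the library labelled replicate 2 was the highest of all 7, and the other dcKO libraries were the lowest. Lmo4 measured 189, 167, 159 and 183 CPM in the controls and 170, 98.4 and 119 CPM in the dcKO. Ldb2 measured 114, 92.8, 105 and 111 CPM in the controls and 123, 82.3 and 80.9 CPM in the dcKO. Here too replicate 2 stayed within or above the control range and the other dcKO libraries lay below it.

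Bcl11b, in contrast, measured 369, 304, 366 and 349 CPM in the controls and 327, 337 and 364 CPM in the dcKO, all inside the control range. Etv1 measured 34.2, 29.3, 27.1 and 38.4 CPM in the controls and 27.3, 29.6 and 28.2 CPM in the dcKO, again without separation. Pcp4, the calmodulin-binding protein, measured 12.7, 12.5, 11.03 and 11.3 CPM in the controls and 10.997, 13.9 and 14.2 CPM in the dcKO. Replicates 3 and 4 were above every control for Pcp4, the opposite direction to Fezf2.

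With all 7 libraries, 0 of 7 members passed an adjusted p of 0.05 (edgeR quasi-likelihood test, Benjamini-Hochberg over 15770 genes), where 0.00634% of all genes did. Lmo4 was the 1 member with an unadjusted p under 0.05, at a log2 fold change of -0.44 ± 0.17 (SE; adjusted p = 0.27), and DESeq2 called 0 members as well. Crym was at -0.50 ± 0.31 (adjusted p = 0.48), Fezf2 at -0.40 ± 0.38 (adjusted p = 0.65), and Bcl11b at -0.02 ± 0.08 (adjusted p = 0.95, all edgeR). No member separated the groups without overlap, against 6.21% of all genes that were lower in every dcKO library than in every control. The median over the members was -0.18, beside 0.00 over all genes tested.

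Without the library labelled dcKO replicate 2, which left 2 dcKO libraries, 4 of 7 members fell, where 6.88% of all genes did so. Crym fell by 1.02 on the log2 scale (SE 0.09, adjusted p = 9.19e-05 by edgeR), Fezf2 by 1.04 (SE 0.11, adjusted p = 0.000283), Lmo4 by 0.69 (SE 0.09, adjusted p = 0.00126) and Ldb2 by 0.37 (SE 0.08, adjusted p = 0.0142). For Crym, Fezf2 and Lmo4 this corresponds to levels 2.03-fold, 2.05-fold and 1.61-fold lower. The same 4 genes were lower in both dcKO libraries than in all 4 controls, against 18.4% of all genes. Pcp4 was the 1 member higher without overlap (log2 fold change 0.24 ± 0.10, adjusted p = 0.17 by edgeR), where 18.9% of all genes were, and Bcl11b was at 0.02 ± 0.08 and Etv1 at -0.16 ± 0.13. With the libraries scaled to 12 pan-neuronal genes instead, which put the median of all genes at 0.11, Fezf2, Crym and Lmo4 still passed and Ldb2 did not (-0.26, adjusted p = 0.077 by edgeR). The pan-neuronal genes were not level themselves: 3 of the 12 fell in the unscaled fit, beside the 6.88% of all genes. Their summed CPM was 9686 to 9957 in the untreated dcKO libraries and 10379 to 11104 in the controls.

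**Figure D2:**
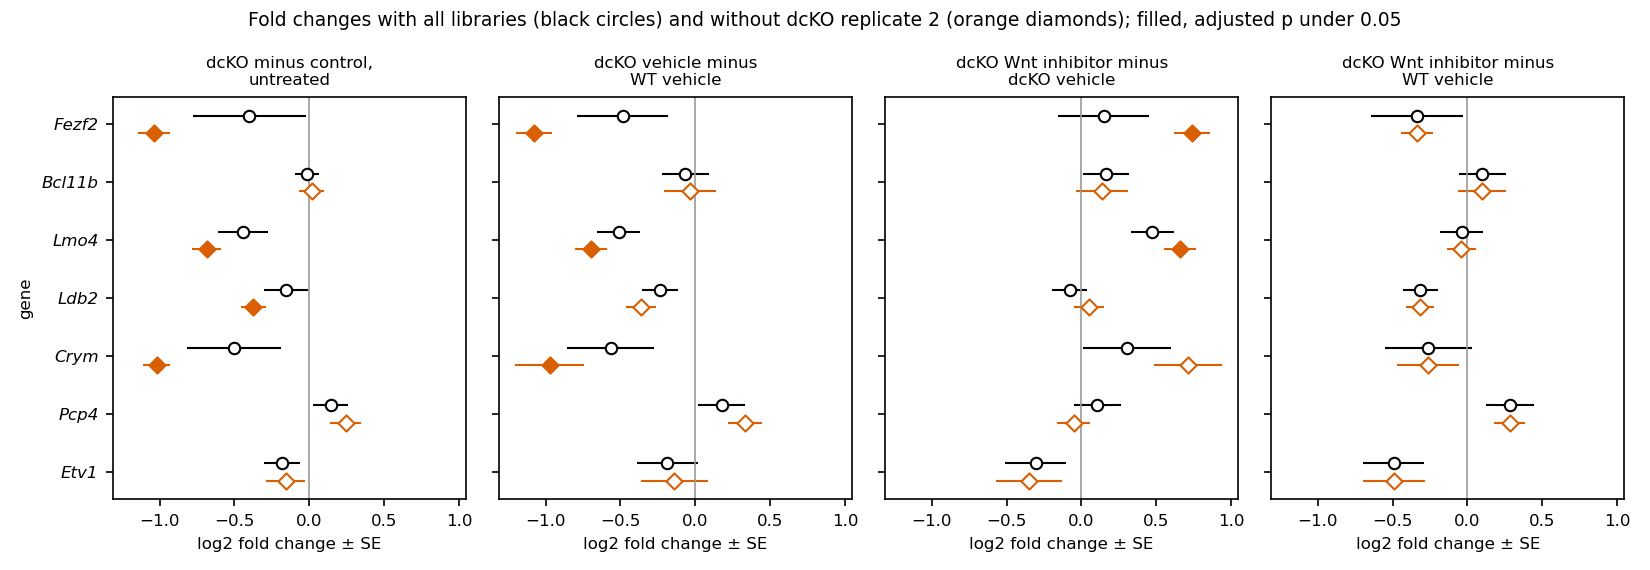
Log2 fold change with its standard error (horizontal axis) of each gene in the 4 comparisons, with all libraries (black circles) and without the library labelled dcKO replicate 2 of that experiment (orange diamonds). Filled symbols have an adjusted p under 0.05: 4 genes in the untreated comparison, 3 in the vehicle comparison and 2 after the inhibitor, all of them without that library.

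The vehicle experiment gave nearly the same values. Fezf2 measured 138, 117, 114 and 117 CPM in WT vehicle and 56.8, 174, 56.7 and 59.6 CPM in dcKO vehicle replicates 1 to 4. Crym measured 92.0, 73.1, 52.9 and 79.5 CPM in WT vehicle and 41.4, 87.3, 30.9 and 41.6 CPM in dcKO vehicle, and Lmo4 197, 183, 156 and 195 against 103, 174, 109 and 127 CPM. The library labelled replicate 2 again stood with the WT libraries for Crym and Lmo4 and above all of them for Fezf2, and the other 3 dcKO libraries lay below all 4 WT libraries for each gene. Ldb2 measured 92.6, 88.7, 100.4 and 90.0 CPM in WT vehicle and 69.5, 99.0, 72.5 and 74.6 CPM in dcKO vehicle, with the same order of libraries.

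Bcl11b measured 333, 357, 400 and 357 CPM in WT vehicle and 308, 324, 357 and 393 CPM in dcKO vehicle, and the groups overlapped widely. Etv1 measured 16.6, 25.5, 32.7 and 25.9 against 20.6, 19.9, 23.3 and 24.4 CPM, the dcKO values falling inside the WT range. Pcp4 measured 9.72, 10.8, 9.68 and 9.57 CPM in WT vehicle and 12.8, 7.39, 11.9 and 12.96 CPM in dcKO vehicle. Its replicate 2 was the lowest and the other dcKO libraries the highest, the mirror image of Fezf2.

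With all 12 treated libraries in the fit, 0 of 7 members passed for dcKO vehicle against WT vehicle (edgeR; 0.00611% of 16372 genes did). Lmo4 had the smallest p, at -0.51 ± 0.14 (unadjusted p = 0.00319, adjusted p = 0.28 by edgeR), was the 1 member with an unadjusted p under 0.05, and DESeq2 also called 0 members. No member separated the groups, where 2.58% of all genes were lower without overlap. Without the library labelled dcKO vehicle replicate 2, 3 of 7 members fell, where 2.06% of all genes did: Fezf2 by 1.08 on the log2 scale (SE 0.12, adjusted p = 0.0018 by edgeR), Lmo4 by 0.70 (SE 0.11, adjusted p = 0.00557) and Crym by 0.97 (SE 0.23, adjusted p = 0.0373). Ldb2 was at -0.37 ± 0.10 (adjusted p = 0.068 by edgeR, 0.0141 by DESeq2) and Pcp4 at 0.33 ± 0.11 (adjusted p = 0.14 by edgeR). Fezf2, Crym, Lmo4 and Ldb2 were lower without overlap, against 9.28% of all genes, and Pcp4 was higher without overlap, against 9.17%. Scaled to the pan-neuronal genes, Crym did not pass (-0.84, adjusted p = 0.068 by edgeR) and Fezf2 and Lmo4 did. In the unscaled fit 0 of these 12 genes passed, and their summed CPM was 8784 to 9288 in dcKO vehicle and 9328 to 10533 in WT vehicle.

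The genotype effect on the members was also set against itself between the experiments. The test of the difference called 0 of 7 members and 0% of 16156 genes (edgeR; 0 members and 81 genes had an unadjusted p under 0.05), and the differences, untreated minus vehicle, were -0.04 (Pcp4) to 0.09 (Fezf2) on the log2 scale. Without both libraries labelled dcKO replicate 2 they were -0.09 (Pcp4) to 0.05 (Bcl11b). The test takes the experiments as independent. Same-numbered libraries resembled each other, so that a result of no difference from it cannot show that the genotype effects were alike.

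After the Wnt inhibitor, Lmo4 and Fezf2 were higher than in the dcKO vehicle libraries with reduced Smarcc1. Lmo4 lay at the level of WT vehicle and Fezf2 below it. The series has no WT group given the inhibitor. An effect of the inhibitor in any genotype therefore cannot be told apart from a return of the dcKO change. Lmo4 measured 183, 177, 181 and 172 CPM in the 4 inhibitor libraries and Fezf2 112, 99.9, 79.5 and 93.3 CPM. Every inhibitor library lay above dcKO vehicle replicates 1, 3 and 4 for both genes, and below replicate 2 for Fezf2. Crym measured 90.0, 46.6, 58.4 and 53.9 CPM, also above dcKO vehicle replicates 1, 3 and 4 in every library. Ldb2 measured 77.2, 77.7, 80.4 and 63.9 CPM, and Etv1 13.2, 23.8, 15.3 and 19.2 CPM, both overlapping dcKO vehicle. Bcl11b measured 258, 491, 395 and 406 CPM, the widest spread of any of its groups, and Pcp4 12.7, 11.6, 12.1 and 12.04 CPM, inside the dcKO vehicle range.

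Against dcKO vehicle with all libraries, 0 of 7 members passed (edgeR; 0.055% of all genes did), Lmo4 alone had an unadjusted p under 0.05 (log2 fold change 0.47 ± 0.14, adjusted p = 0.19), and DESeq2 called 0. No member was higher without overlap, where 4.48% of all genes were. Without dcKO vehicle replicate 2, 2 of 7 members rose, where 0.635% of all genes did, Fezf2 by 0.74 ± 0.12 (1.67-fold, adjusted p = 0.0202 by edgeR) and Lmo4 by 0.66 ± 0.11 (1.58-fold, adjusted p = 0.0206). Crym was at 0.71 ± 0.23 (adjusted p = 0.12 by edgeR, 0.0489 by DESeq2), and these 3 genes were higher without overlap, against 11.2% of all genes. Leaving out the inhibitor library labelled replicate 2 as well, whose Smarcc1 was at the WT level, kept both calls. Fezf2 was then at 0.72 (adjusted p = 0.0176 by edgeR) and Lmo4 at 0.66 (adjusted p = 0.0164). In that fit 392 of 16547 genes rose and 615 fell. Leaving out inhibitor replicate 1 too left 2 inhibitor libraries. It gave 0.58 for Fezf2 (adjusted p = 0.0472 by edgeR) and 0.64 for Lmo4 (adjusted p = 0.0478). There 51 of 16815 genes rose and 121 fell. Smarcc1 itself was at 0.52 ± 0.16 (adjusted p = 0.12) without dcKO vehicle replicate 2, so that the level of the targeted gene moved with these results, and its part in them was not tested.

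Against WT vehicle, the inhibitor libraries had 0 of 7 members past an adjusted p of 0.05 (edgeR; 0.0977% of all genes did; DESeq2 0 members; unadjusted p under 0.05 for 2 members, Ldb2 and Etv1). Fezf2 and Ldb2 were lower in every inhibitor library than in every WT library, where 4.02% of all genes were, at -0.34 ± 0.30 (adjusted p = 0.56 by edgeR) and -0.31 ± 0.12 (adjusted p = 0.18). Etv1 was at -0.49 ± 0.20 (adjusted p = 0.21 by edgeR), Crym at -0.26 ± 0.29 and Lmo4 at -0.04 ± 0.14. Pcp4 was higher in every inhibitor library than in every WT library (0.28 ± 0.16, adjusted p = 0.33 by edgeR), where 3.48% of all genes were. Of the members lower in the dcKO, Lmo4 lay nearest to WT after the inhibitor, while Ldb2 differed from dcKO vehicle by -0.08 ± 0.12 (adjusted p = 0.78 by edgeR). Without dcKO vehicle replicate 2, edgeR still called 0 members and DESeq2 called Ldb2 (-0.32, adjusted p = 0.0268). That DESeq2 fit called 405 genes higher and 594 lower of 16524. With inhibitor replicates 1 and 2 left out as well, Fezf2 was below WT at a log2 fold change of -0.49 (adjusted p = 0.0292 by edgeR). In that fit 448 of 16815 genes were higher and 793 lower. The 3 treated comparisons share groups, so that they are not independent of one another.

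**Figure D3:**
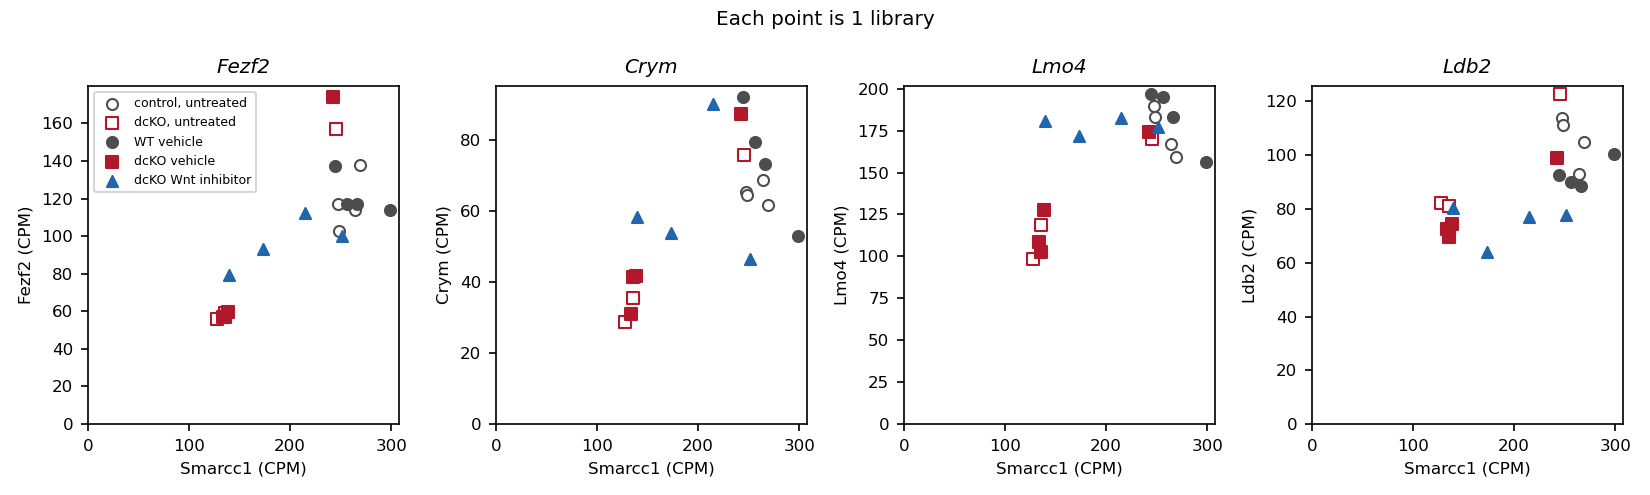
CPM of Fezf2, Crym, Lmo4 and Ldb2 (vertical axes) against CPM of Smarcc1 (horizontal axis), 1 point per library. The dcKO libraries with Smarcc1 at 128 to 138 CPM hold the lowest Fezf2 values (55.7 to 59.6 CPM), and the libraries labelled dcKO replicate 2 lie with the controls on the horizontal axis; the inhibitor libraries spread between them.

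Markers of other cells moved with these results. The summed CPM (without TMM scaling) of 12 striatal genes was 76.4 to 120 in untreated controls and 79.5 to 114 in WT vehicle. It was 102 to 122 in the dcKO libraries with reduced Smarcc1. In the libraries labelled dcKO replicate 2 it was 48.1 and 46.9, and in the inhibitor libraries 166 to 276. Of these 12 genes, 11 were higher after the inhibitor (median log2 fold change 1.34, beside 0.01 over all genes; 10 with an unadjusted p under 0.05, 0 with an adjusted p under 0.05). Without dcKO vehicle replicate 2 the median was 1.03 and 2 of the 12 rose, where 0.635% of all genes did. Bcl11b was highest, at 491 CPM, in inhibitor replicate 2, where the striatal sum was also highest (276). The summed choroid plexus genes stood at 885, 159, 493 and 7.14 CPM in inhibitor replicates 1 to 4, and at most 9.63 CPM in dcKO vehicle. The sum of 11 interneuron genes was 1001 to 1194 CPM after the inhibitor, 1027 to 1086 CPM in dcKO vehicle replicates 1, 3 and 4, 653 CPM in replicate 2 and 681 to 933 CPM in WT vehicle, so that the inhibitor libraries overlapped dcKO vehicle. In the untreated dcKO, the interneuron sum was 593, 1001 and 917 CPM in replicates 2, 3 and 4, against 698 to 803 CPM in controls. A sum over 7 glutamatergic genes, which mark the pyramidal lineage as a whole, was 1070 to 1320 CPM in the dcKO libraries with reduced Smarcc1, 1524 to 2109 CPM in controls and WT, and 1443 to 1640 CPM after the inhibitor. In the libraries labelled dcKO replicate 2 it was 2081 CPM (untreated) and 2000 CPM (vehicle). In the untreated fit without replicate 2, in which 4 members fell, 6 of 11 interneuron genes, 3 of 5 thalamic genes and 4 of 8 radial glia genes rose. In the same fit 1 radial glia gene, 2 of 7 glutamatergic genes and 1 of 12 striatal genes fell (edgeR, adjusted). Over all 16024 genes, 892 rose and 1102 (6.88%) fell, so that the 1 of 12 striatal genes was near the share that fell. The thalamic sum was 149 and 163 CPM in dcKO replicates 3 and 4, above the 117 to 129 CPM of the controls, and 109 CPM in replicate 2. Of 5 hippocampal genes 1 rose and 2 fell, of 7 genes of meninges and vessels 1 fell, and 0 of 4 microglial, 0 of 5 erythroid and 0 of 6 choroid plexus genes passed (1, 0 and 0 with an unadjusted p under 0.05). None of these markers was at 0 in a whole group. The part of these cells in the levels of the members was not tested.

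The other genes of the pathway moved in part with the members. Of 15 further subcerebral genes, 0 passed in any comparison with all libraries (edgeR, with 5 at an unadjusted p under 0.05 in the untreated comparison). Without untreated dcKO replicate 2, 4 of 15 fell, in a fit where 1102 (6.88%) of 16024 genes fell and 892 rose. S100a10 fell by 1.81 on the log2 scale and Chst8, a sulfotransferase, by 0.69. Sox5, which orders the birth of deep-layer neurons, fell by 0.69 and Diap3 by 0.56. In the same fit Otx1, a homeobox gene of layer 5, rose by 0.48 and the cadherin Cdh13 by 0.25, and the median of the list was -0.16, beside 0.00 over all genes. In the vehicle experiment without replicate 2, S100a10 alone of the 15 passed, at -1.68, where 2.06% of all genes fell. It was also the 1 of 15 that passed after the inhibitor, at 1.65, where 0.635% of all genes rose. Among 11 regulators of projection neuron identity, 5 fell in the untreated comparison without replicate 2, among them Bcl11a at -0.92 and Lhx2 at -0.81, and Nr2f1 rose by 0.37. Lhx2, Bcl11a and Zfpm2 were among those that fell in the vehicle comparison, at -0.89, -0.97 and -0.56, and Lhx2 and Bcl11a were among those that rose after the inhibitor, by 0.69 and 0.70 (all edgeR, adjusted p under the 0.05 limit, without replicate 2).

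Genes of neighboring layers changed beside them. Of 9 layer 6 genes, 5 fell and 1, Ppp1r1b, rose by 1.88 in the untreated comparison without replicate 2, where 6.88% of all genes fell. Of 14 upper-layer genes, which overlap the list of regulators, as do the layer 6 genes, 6 fell and 1 rose, with medians of -0.37 for layer 6 and -0.33 for the upper layers, close to the -0.37 of the members. A fall among pallial genes was not limited to those of layer 5. Syt6, a synaptotagmin of layer 6, was the 1 gene of these lists that passed with all libraries, rising by 0.62 ± 0.09 after the inhibitor (adjusted p = 0.0263 by edgeR).

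Across the 12 treated libraries, Fezf2 varied with Crym (Pearson's r of log2 CPM, 0.87), Lmo4 (0.82) and Ldb2 (0.74), and opposite to Pcp4 (-0.80). The genes most like Fezf2 among 11719 genes were Lhx2 (r = 0.98), Sstr2 (0.98) and Fgfr1 (0.97), a LIM homeobox factor and receptors for somatostatin and fibroblast growth factor. Those most like Crym were Tsku (0.98), Etv4 (0.96) and Qsox1 (0.95), and those most like Lmo4 were Nts, which encodes neurotensin (0.92), Slc12a4 (0.90) and Lhx2 (0.90), with Mpeg1 (-0.93), Cc2d2a (-0.92) and Tmc7 (-0.91) at the opposite end. The nearest to Ldb2 were Ppp2r2b (0.92), Smarca2 (0.91), which encodes the BAF ATPase BRM, and Pgm3 (0.91), and the nearest to Pcp4 were Meis1 (0.89), Entpd3 (0.88) and Ahi1 (0.87). Bcl11b was nearest to Msi2 (0.87), Srsf12 (0.86) and Dlx6os1 (0.84), the last a noncoding RNA of the Dlx locus of forebrain inhibitory neurons, and Etv1 to Fgf14 (0.99), Slco5a1 (0.98) and Ino80d (0.98). The libraries share 3 groups and their composition, and these values are descriptions.

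H3K27me3 is the mark that the Polycomb repressive complex sets on silent developmental genes, and BAF complexes oppose Polycomb. Peaks at the starts of the members were present at some genes and missing at others. A peak within 2000 bp of the GENCODE gene start was called in at least 2 of 8 libraries at 3 of 7 members, Fezf2 (3 control, 2 dcKO libraries), Bcl11b (2 and 2) and Crym (3 and 4), where 23.1% of 21938 genes had one. Lmo4, Pcp4, Ldb2 and Etv1 had no such peak in any library. Etv1 had none over its whole length either, Ldb2 had 2 short ones in control replicate 1 alone, and Pcp4 had 1 each in control replicates 1 and 2, away from its start, with short peaks in dcKO replicates 1 and 4 farther than 2000 bp upstream. The promoters of 5 members were matched in RefSeq (GRCm38.p6), 250 bases before to 50 after a start, and 3 are shown because they span these cases: Fezf2 (chr14:12345816-12346115, minus strand; downstream of the GENCODE start of 12348189) and Bcl11b (chr12:108003365-108003664, minus strand) with H3K27me3 peaks, and Lmo4 (chr3:144205206-144205505, minus strand) without. Capitals mark CpG, the dinucleotide that recruits Polycomb where it is dense and free of methylation.
Fezf2: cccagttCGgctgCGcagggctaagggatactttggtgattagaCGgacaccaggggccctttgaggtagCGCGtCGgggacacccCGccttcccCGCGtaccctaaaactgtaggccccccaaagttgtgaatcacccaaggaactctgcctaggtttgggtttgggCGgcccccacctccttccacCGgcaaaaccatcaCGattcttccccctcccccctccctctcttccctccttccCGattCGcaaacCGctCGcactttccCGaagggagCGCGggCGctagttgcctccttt
Bcl11b: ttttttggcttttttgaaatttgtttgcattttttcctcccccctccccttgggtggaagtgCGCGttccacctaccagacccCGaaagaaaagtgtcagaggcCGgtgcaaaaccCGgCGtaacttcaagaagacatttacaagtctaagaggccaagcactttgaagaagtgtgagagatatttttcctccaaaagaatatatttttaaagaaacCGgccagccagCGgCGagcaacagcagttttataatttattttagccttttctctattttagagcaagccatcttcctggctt
Lmo4: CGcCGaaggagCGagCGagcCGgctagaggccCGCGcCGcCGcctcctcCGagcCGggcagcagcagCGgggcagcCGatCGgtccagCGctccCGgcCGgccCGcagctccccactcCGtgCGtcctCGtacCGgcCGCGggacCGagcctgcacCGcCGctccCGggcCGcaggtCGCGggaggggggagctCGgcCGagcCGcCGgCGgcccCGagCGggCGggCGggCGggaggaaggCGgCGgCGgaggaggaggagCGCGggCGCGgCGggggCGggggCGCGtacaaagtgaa
These hold 20, 9 and 52 CpG, and 26.5%, 45.8% and 0.575% of 32851 promoters of the same length hold at least as many, while 94.6% hold 1 or more. A peak lay over the window in 2 control and 3 dcKO libraries for Fezf2, in 1 and 1 for Bcl11b, and in none for Lmo4, whose promoter is the densest of the 3. Of the other 2 Lmo4 starts in RefSeq, the windows of which hold 30 and 31 CpG, 1 was under a peak in 1 dcKO library. CTTTGAT or CTTTGTT, forms of the TCF motif searched on both strands, was in 0 of the 8 promoter windows of these 5 members. It was in 9.33% of all promoters, so that 0 of 8 is near that share. Other forms of the motif were not searched.

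At Fezf2 the mark covered the whole gene in some libraries. In dcKO replicates 3 and 4 a single peak of 14619 and 13077 bp ran from upstream of the start past the gene's end, with a fold enrichment over input of 4.25 and 5.71. In control replicate 2 a peak of 7389 bp crossed the start (4.08), in control replicate 4 one of 1989 bp lay at it (3.74), and control replicate 1 and dcKO replicate 1 held shorter peaks inside and beyond the gene (at most 3.95 and 4.32). Control replicate 3 and dcKO replicate 2 had no peak at Fezf2. The groups overlapped both in the length covered and in enrichment. These 3 longest peaks were all in libraries in which over 30% of the tags were kept after removal of tags at 1 position (32.8 to 66.5% in control replicates 2 and 4 and dcKO replicates 3 and 4, against 12.3 to 18.01% in the others), and the part of library complexity in peak length was not tested.

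At Crym, a peak crossed or lay beside the start in 7 of 8 libraries. Its enrichment was 6.60, 4.42 and 3.801 in control replicates 1, 2 and 4, with no peak in replicate 3, and 4.17, 4.04, 4.50 and 6.05 in dcKO replicates 1 to 4. The control and dcKO values overlapped. The longest were 4981 bp in dcKO replicate 4 and 4706 bp in dcKO replicate 3, and the shortest 345 bp in control replicate 1. At Bcl11b the mark was broken into short peaks at the start, upstream of it, in an intron and, in dcKO replicates 1 and 4 alone, over an exon near its end (5.30 and 3.18). Upstream of the Bcl11b start, enrichment was 8.22 and 3.58 in control replicates 1 and 2 and 5.59 and 3.41 in dcKO replicates 1 and 4. Lmo4 held an intronic peak of at most 527 bp in control replicate 1 (4.43) and dcKO replicates 1 and 4 (4.90 and 5.54). In dcKO replicate 4, the library with the most peaks (46000), Lmo4 held 2 more peaks, 1 of them 1347 bp long (4.11).

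**Figure D4:**
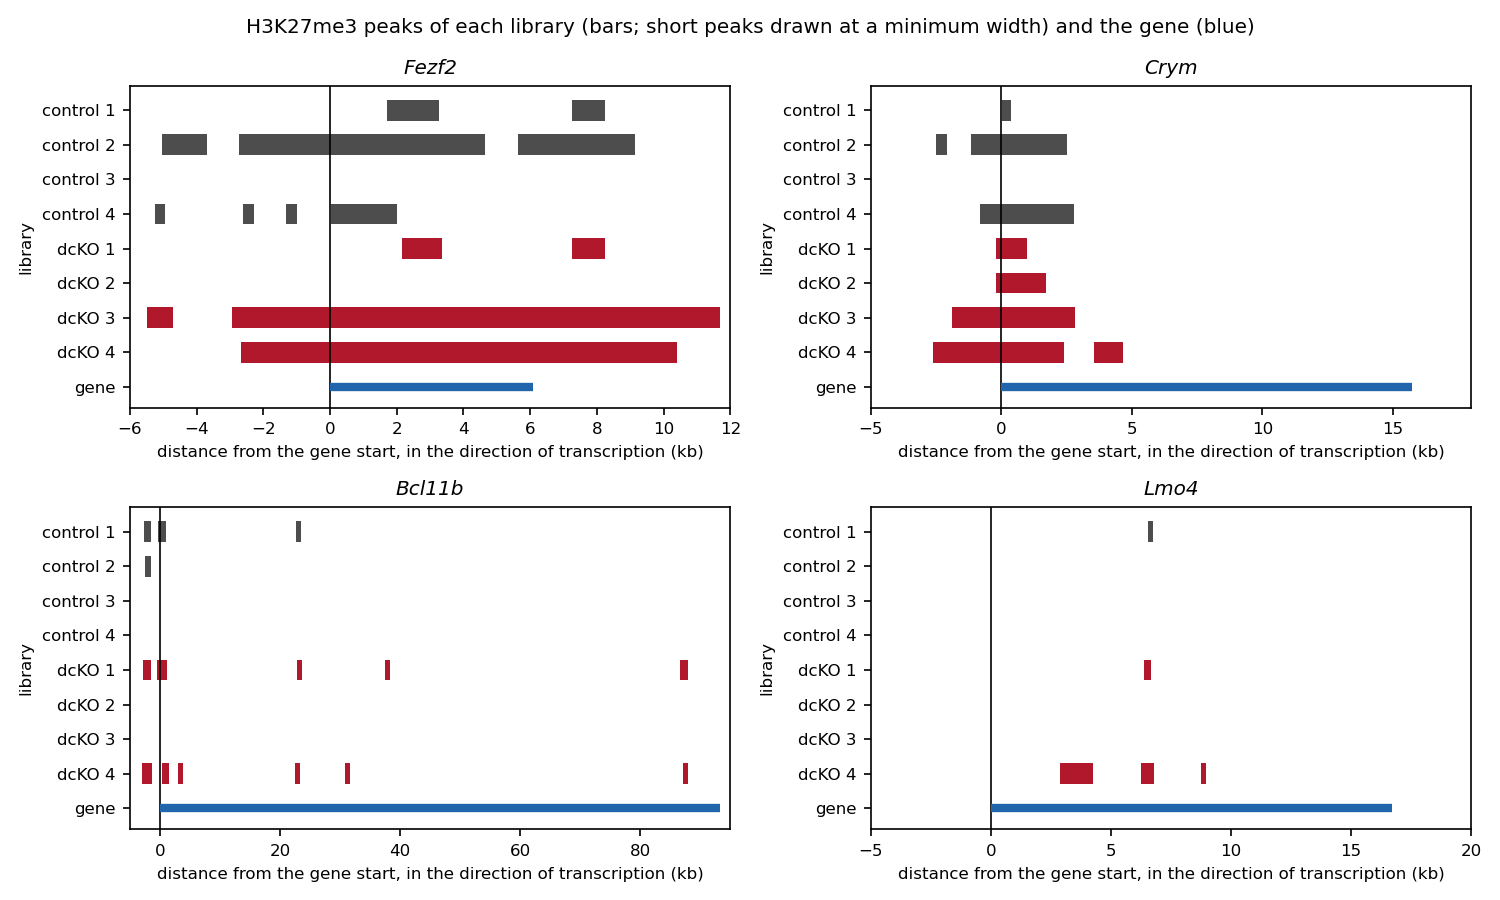
H3K27me3 peaks (bars) of the 4 control and 4 dcKO libraries at Fezf2, Crym, Bcl11b and Lmo4, by distance from the gene start in kb (horizontal axis), with the gene in blue. At Fezf2 the longest peaks, 14619 and 13077 bp, are those of dcKO replicates 3 and 4, and control replicate 3 has no peak at any of the 4 genes.

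Regions marked in 2 or more libraries numbered 22220, of which 7 lay at members, and 0 of 7 passed an adjusted p of 0.05 (limma on log2 fold enrichment, no peak set to an enrichment of 1), nor did any region (0%). None of the 7 had an unadjusted p under 0.05. The region over Fezf2 (chr14:12336507-12351125) differed by 0.16 ± 0.89 (SE; dcKO minus control, mean log2 enrichment 1.68 against 1.52) and that over the Crym start (chr7:120199290-120204709) by 0.51 ± 0.82 (2.21 against 1.70), both with an adjusted p of 0.999995 by limma. Within the libraries with over 30% of tags kept the differences were 0.25 and 0.35, and within the others 0.06 and 0.67. The 4 regions at Bcl11b differed by -0.16 (chr12:108004849-108006546, upstream of the start) to 1.02 (chr12:107915594-107916988, exonic), and that in an intron of Lmo4 (chr3:144198443-144198969) by 0.65 ± 0.87. With standard errors of 0.73 to 0.90, a difference of the size of these could not be detected in 4 against 4 libraries. The members lower in dcKO RNA were thus on both sides of the division by H3K27me3: Fezf2 and Crym had start peaks, and Lmo4 and Ldb2 had none.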

How the data were processed

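For RNA-seq (unstranded), per the study's methods, the authors aligned with STAR (mm10) and deposited raw featureCounts counts for each gene. The annotation is not given in the sources used here. For H3K27me3, the authors called broad peaks per library with MACS2 against pooled input, at a q-value limit of 0.1 and 1 tag per position. The deposited lists give each peak's fold enrichment (a ratio to input), pileup signal and -log10 q-value.

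Counts were fitted with edgeR 4.0.16 (TMM, filterByExpr, robust quasi-likelihood test, Benjamini-Hochberg), the untreated libraries by themselves and the 12 treated libraries together. DESeq2 1.42.0 was an alternative. Overlapping peaks were merged, and merged regions marked in 2 or more libraries were tested with limma 3.58.1. Genes were placed with GENCODE M21 on GRCm38. The scripts were tested on simulated data. Members and lists were chosen with earlier results of these data known. Named genes are the members, Smarcc1, Smarcc2, list genes past an adjusted p of 0.05 (at most 6 per list), and the 3 genes most like each member, with the 3 least like Lmo4, among genes with a mean count of at least 100. H3K4me2 was not analysed here. Values of 1 listed gene are not reported here.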

Additional observations from a re-analysis of the deposited data

Results flagged for a closer look

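Among the 28 groups of 4 libraries formed by the 7 members, 3 held a library far from the other 3, measured as its gap to the nearest one over the range of the group. Chance alone sets about 1 in 20 such groups apart. Fezf2 in dcKO vehicle replicate 2 was 174 CPM, the highest of its group, and this library also went against its label in Smarcc1 and Smarcc2. Fezf2 in WT vehicle replicate 1 was the highest of its group at 138 CPM. Pcp4 in WT vehicle replicate 2 was the highest of its group at 10.8 CPM.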

How the results depend on the processing

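The number of members called depended on 1 library in each experiment. Leaving out 1 library at a time gave 0 to 4 members in the untreated comparison, 0 to 3 for dcKO vehicle against WT vehicle and 0 to 2 for the inhibitor, with the highest counts without the library labelled dcKO replicate 2, and all genes called ranged from 0 to 1994, 0 to 562 and 0 to 420, and from 0 to 1453 for the inhibitor against WT, the last 2 highest without inhibitor replicate 2. The following combinations were chosen after seeing the data. Without dcKO replicate 2, DESeq2 called 4, 4, 3 and 1 members in these 4 comparisons. Scaling to the pan-neuronal list without it gave 3, 2 and 2 in the first 3. Over all genes, DESeq2 then called 942 higher and 1215 lower of 16021 in the untreated comparison. It called 417 and 602 of 16524 for vehicle, 502 and 501 for the inhibitor, and 405 and 594 against WT. The pan-neuronal scale called 1220 and 604 of 16024, 315 and 220 of 16526, and 148 and 76 in the first 3. Without dcKO vehicle replicate 2 and inhibitor replicate 2, 2 members were called for the inhibitor (392 genes higher and 615 lower of 16547). Without inhibitor replicate 1 too, 2 were called for the inhibitor (51 and 121 of 16815 genes) and 1, Fezf2, against WT (448 and 793).

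With all libraries, all genes called moved from 1 in the untreated comparison to 154 without a filter on low counts, 88 on the pan-neuronal scale and 555 by DESeq2, from 1 in the vehicle comparison to 0 with DESeq2 size factors, without a filter, on the pan-neuronal scale or with only its groups fitted, and 120 by DESeq2, from 9 for the inhibitor to 20 without a filter and 339 by DESeq2, and from 16 against WT to 58 without a filter, 86 on the pan-neuronal scale, 770 by DESeq2 and 8 with only its groups fitted.

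Within an experiment, same-numbered libraries of the groups compared correlated at a mean r of -0.14 (untreated), 0.09 (treated) and 0.08 (H3K27me3). Libraries of different numbers had means of 0.05, -0.03 and -0.02. The pairs spread widely: -0.18 to 0.40 for the same number and -0.37 to 0.24 for different numbers in the treated libraries. For H3K27me3 these ranges were -0.32 to 0.58 and -0.50 to 0.51. Whether the numbers pair samples was not settled, and they were not used as pairs in the main fits. The replicate block gave 0, 5 and 189 genes for the untreated, vehicle and inhibitor against WT comparisons, and no member was called under it.

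Reversed signs were small. Bcl11b in the untreated comparison was 0.018 with the replicate block, 0.10 on the pan-neuronal scale, 0.12 and 0.019 without dcKO replicate 2 on that scale and by DESeq2, and -0.074 to 0.016 leaving out 1 library. In the vehicle comparison it was 0.069 on the pan-neuronal scale and 0.088 there without replicate 2. For the inhibitor without dcKO replicate 2, Pcp4 was -0.020 on the pan-neuronal scale, -0.060 by DESeq2, and -0.030 and -0.051 when inhibitor replicate 2, or 1 and 2, were also left out. Ldb2 was 0.075, 0.041 and 0.032 under the first 3 of these settings. Leaving out 1 library gave -0.050 to 0.17 for Pcp4, -0.14 to 0.050 for Ldb2 and -0.0097 to 0.74 for Fezf2. Against WT, Lmo4 was 0.12 on the pan-neuronal scale with and without replicate 2, and Bcl11b was -0.038 without dcKO vehicle replicate 2 and inhibitor replicate 2 and -0.037 to 0.25 leaving out 1 library. For H3K27me3, the intronic Bcl11b region was -0.051 at a q-value under 0.01, and with pileup Fezf2 was -0.033 and Crym -0.16. Leaving out 1 library gave -0.35 to 0.72 at Fezf2, -0.054 to 0.85 at Crym and -0.63 to 0.45 upstream of Bcl11b. The causes were not tested.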
